A study of Mus musculus with 14 samples.

Results

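The Early, Late and Reactivated phases of a fear memory were pooled as 10 libraries and set against the 4 Basal libraries of the same study, region by region, in chromatin of sorted neuronal nuclei of the mouse hippocampus. The table held 191271 regions of open chromatin. The comparison used the 168650 regions that lay on the 19 autosomes and had a mean of at least 0.83 RPKM over the 14 libraries. RPKM is the number of reads in a region scaled to its length and to the library's read total. Each library was divided by its own median region, and each phase carried equal weight whatever its number of libraries. The autosomal regions nearest the minimum had means of 0.829996 RPKM just outside it and 0.830011 RPKM just inside it, and 17973 autosomal regions fell below it.

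ATAC-seq reads out open chromatin: a transposase inserts adapters where DNA is not covered by nucleosomes, so many reads over a region mean that it was accessible, as promoters and enhancers in use are. Arc is an immediate early gene of neurons, transcribed within minutes of strong synaptic activity and widely used to mark neurons that took part in an experience. Neurons marked in this way and active again at recall are called an engram ensemble, and stimulus-dependent opening and closing of enhancers is well known in such cells.

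All 14 libraries came from the strain ArcCreERT2 x R26R-STOP-floxed-eYFP with the genotype +/+, in which Arc-driven, tamoxifen-dependent Cre switches on a yellow fluorescent reporter. The labels give no age or sex. All mice were labelled with 4-Hydroxytamoxifen before contextual fear conditioning and had the foot shock on day 0. Early (n = 3) was collected on day 0 without recall. Late (n = 4) was collected on day 5 without recall. Reactivated (n = 3) had recall on day 5, with collection on days 5, 6 and 7 in replicates 1, 2 and 3. Basal (n = 4) has a treatment label identical to that of Early, and only its titles tell it apart. The labels do not state what made these nuclei Basal, so differences from Basal cannot be assigned to time or learning. Hippocampi of 10 to 12 mice were pooled to reach 10000 nuclei, which were stained for NeuN, Arc and GFP before sorting. The labels neither say which stained population each library holds nor tie libraries to mice, so p-values measure the spread between libraries, which may be technical. The series' design text speaks of 3 biological replicates, whereas Basal and Late have 4 libraries. Regions carry positions in mm9 and no gene names, so the neuronal identity of the nuclei could not be checked on markers, and genes near the regions are not named.

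The 4 Late libraries held 46134253 to 47375212 reads and the other 10 libraries 54257222 to 56251676, with a median of 27 to 52 reads per tested region in each. The share of reads inside regions averaged 19.9% ± 7.15 in the 3 Early libraries, 19.2% ± 0.653 in the 4 Late libraries and 23.1% ± 1.54 in the 3 Reactivated libraries, against 15.7% ± 2.71 in the 4 Basal libraries (mean ± SD). The phases exceeded Basal by 5.00 percentage points (2-sided exact permutation p = 0.0368, adjusted p = 0.110 over 21 library measures). Early spread most, with 13.8%, 27.8% and 18.1% in replicates 1, 2 and 3. The adjusted p was 0.0311 without Early replicate 1. Late also stood apart in its highest regions. The value exceeded by 0.1% of regions was 4.23 ± 0.127 times the library median in Late, 7.31 ± 1.78 in Early and 8.66 ± 0.455 in Reactivated, against 7.93 ± 1.65 in Basal. How far these library properties take part in the region changes was not tested beyond the values given beside the results.

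Accessibility moved in both directions in the pooled phases, in almost equal numbers. Of the tested regions, 26649 were higher in the phases than in Basal, which is 15.8%, and 26430 were lower, which is 15.7% (limma, Benjamini-Hochberg adjusted p under 0.05). The median log2 change was 0.73 among the regions called higher and -0.80 among those called lower. Changes among called regions ran up to 2.26 on the log2 scale, and the lowest fell by 2.00. Changes of at least 2-fold were seen in 5020 higher (18.8%) and 6634 lower regions (25.1%), against 11699 of all tested regions (6.94%). Without any model, all 10 phase libraries lay above all 4 Basal libraries in 8754 regions (5.19%) and below them in 5047 (2.99%). The near balance of the directions rests on the scaling. On RPKM as deposited, with no division by the median, 50224 regions were higher and 9235 lower, so that 84.5% of calls were higher, against 50.2% after the division, and the median change of all regions was 0.33. With the in-region share of reads as a covariate, 7026 regions were called higher and 8353 lower. Without the Late libraries the counts were 13923 and 12685. An added fit without Late and without Early replicate 2 gave 7746 and 7323.

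Each phase was also set against the same Basal libraries in the same fit. Early had 13322 regions higher (7.9%) and 11152 lower (6.61%). Late had 23387 higher (13.9%) and 27635 lower (16.4%). Reactivated had 16738 higher (9.92%) and 17104 lower (10.1%). The fit uses a common estimate of spread for all groups, and Late has 4 libraries against 3 in Early and Reactivated. Its median standard error over the regions called higher in the pooled phases was 0.22, against 0.24 in Early and Reactivated. These counts alone therefore do not rank the size of the changes. Over all tested regions the quartiles of the change were -0.35 and 0.35 in Early, -0.44 and 0.38 in Late, and -0.32 and 0.40 in Reactivated. The 3 sets of changes share the Basal libraries, so a like sign in all of them is not independent support, and their values are given side by side.

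Among the regions called higher the phases were close to one another. Their median change was 0.72 in Early, 0.78 in Late and 0.74 in Reactivated. Among the regions called lower Early changed least: the medians were -0.62 in Early, -0.92 in Late and -0.87 in Reactivated. Over all tested regions the medians were -0.00, -0.01 and 0.07 in the same order. Differences between phases leave Basal out of the contrast, but the regions were picked by the pooled call, which uses phase and Basal values. Such differences describe the called regions and test nothing. Over all tested regions the median of Late minus Early was -0.04, of Reactivated minus Early 0.01 and of Reactivated minus Late 0.05. In the lower regions the median of Late minus Early was -0.32 and that of Reactivated minus Early -0.23, while Reactivated minus Late was 0.09. In the higher regions the same medians were 0.06, -0.00 and -0.05.

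**Figure D1:**
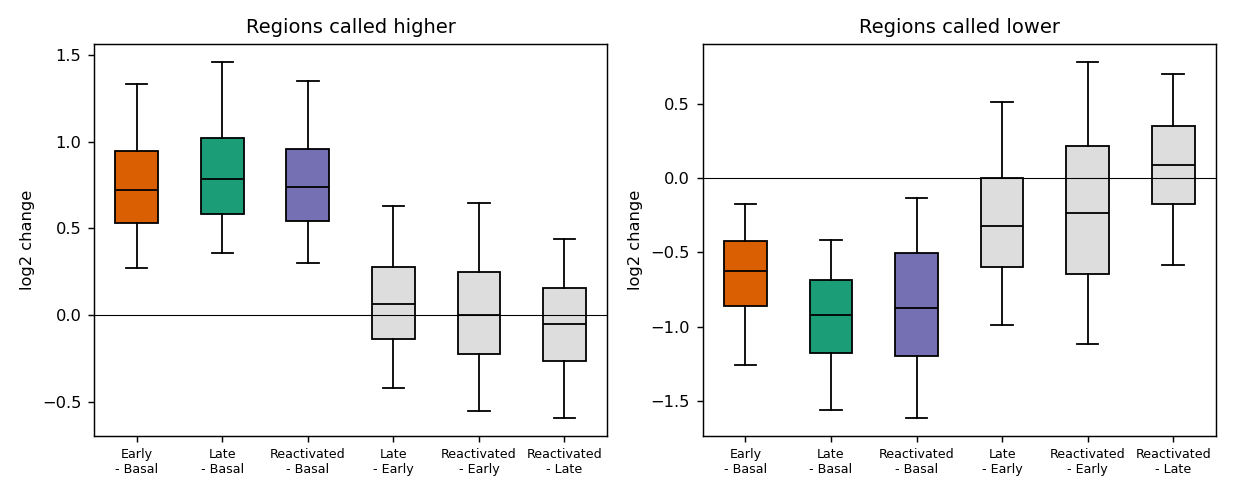
Log2 changes in the regions called higher (left) and lower (right) in the pooled phases, for each phase minus Basal (coloured) and between phases (grey). Boxes span the quartiles with the median as a line and whiskers the 5th to 95th percentile of regions; in the regions called lower the medians of Late and Reactivated minus Early are -0.32 and -0.23, and both boxes reach past 0.

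A region was described as even where all 3 phases had the sign of the pooled change and the smallest change was at least 50% of the largest. This held for 42067 of all tested regions (24.9%). It held for 18429 of the 26649 higher regions (69.2%) and for 10445 of the 26430 lower ones (39.5%). The same values made the calls, so these shares describe the called regions and test nothing. In the lower regions the smallest of the 3 changes was that of Early in 59.0%, of Reactivated in 31.9% and of Late in 9.15%. In the higher regions the shares were 38.1%, 38.5% and 23.4%. Evenness went up with the size of the change, which the rule partly fixes. Median standard errors of a phase change were 0.22 to 0.27 on the log2 scale, so small changes miss the rule more easily. Higher regions were even in 43.5% of cases at pooled changes of 0.25 to 0.5, and in 98.4% above 1.5. Lower regions were even in 19.7% and 78.9% of cases in the same classes.

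An F test among the phases, which leaves Basal out of the contrast, called 6026 of the tested regions (3.57%). It called 264 of the higher regions (0.991%) and 1831 of the lower regions (6.93%). The higher and lower regions were picked by the pooled call on the same libraries, so their shares are a description. Missing this test does not show a region to be even. Leaving out a single library moved the count: 16204 regions were called without Early replicate 2 and 1739 without Early replicate 3. Leaving out Late replicates 1, 2, 3 and 4 in turn gave 2277, 1923, 1738 and 1556, and leaving out Reactivated replicates 1, 2 and 3 gave 1650, 2732 and 1764. With the 4 Late libraries averaged to 1 sample, limma called 0 regions at the adjusted threshold, while 20487 had an unadjusted p under 0.05, and voom on the recovered reads, with all libraries, called 14060.

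The Early libraries differed among themselves more than those of any other phase. Over the higher regions, the median log2 value above the Basal mean was 0.52, 1.03 and 0.63 in Early, 0.83, 0.76, 0.82 and 0.74 in Late, and 0.66, 0.72 and 0.83 in Reactivated, against 0.05, -0.01, -0.07 and 0.05 in Basal. Over the lower regions it was -0.36, -0.97 and -0.56 in Early, -0.89, -0.87, -0.94 and -0.86 in Late, and -0.74, -0.85 and -0.91 in Reactivated, against -0.04, 0.01, 0.07 and -0.02 in Basal. All 10 phase libraries lay on the called side of all Basal libraries, which the calls themselves fix. Early replicate 2 lay farthest from Basal of all libraries and Early replicate 1 nearest among the phases. In the share of reads in regions, these were also the highest and the lowest of the 3 Early libraries. Even regions numbered 6108 of the lower calls without Early replicate 2, which is 25.8% of them, and 16235 (54.9%) without Early replicate 1. Of the higher calls, 59.6% were even without Early replicate 2.

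**Figure D2:**
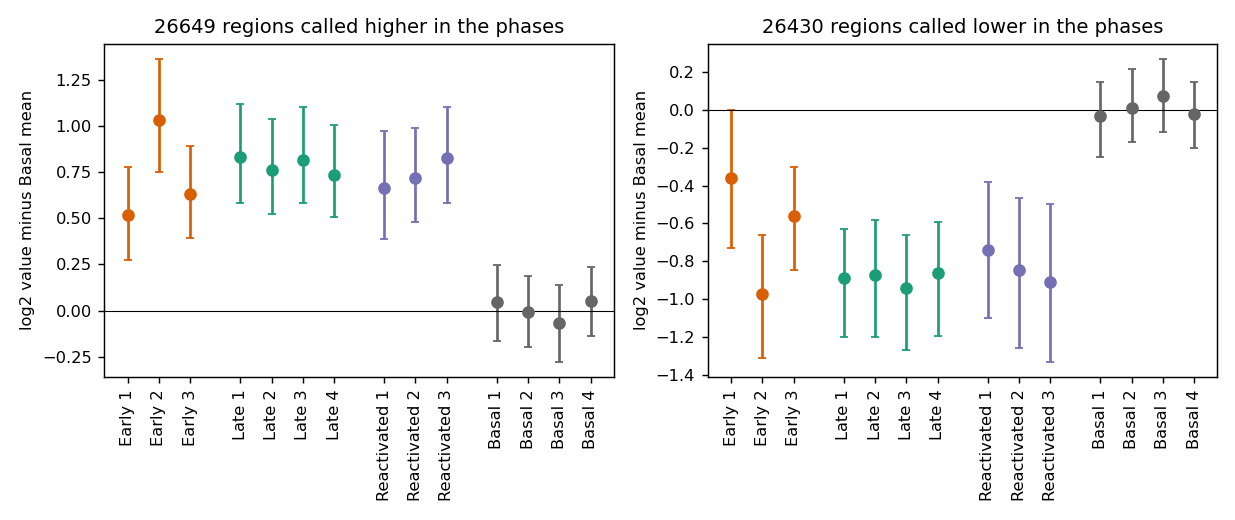
Median log2 value minus the Basal mean in each library, over the regions called higher (left) and lower (right); bars span the quartiles of regions. The 4 Late libraries lie close together, from 0.74 to 0.83 and from -0.94 to -0.86, while the Early libraries range from 0.52 to 1.03 and from -0.97 to -0.36.

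The regions named below passed the pooled test, had phase and Basal libraries without overlap and stood above the median level. This left 4856 higher and 2422 lower candidates. Taken from these were the largest changes, those whose smallest phase change was largest, and the least even, 27 regions in all. Values are RPKM as multiples of the library's median region.

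The largest rise was at chr1:20123128-20123410. It measured 0.585, 3.74 and 1.98 in Early, 2.40, 2.40, 2.42 and 2.42 in Late, and 1.18, 2.77 and 3.12 in Reactivated, against 0.110, 0.336, 0.359 and 0.185 in Basal. Every phase library was above every Basal library, with Early replicate 1 nearest to them. The pooled log2 change was 2.26 ± 0.31 (SE; 4.79-fold; limma adjusted p = 0.000395), and the Basal libraries held 2 to 5 reads there. At chr12:60186052-60186399 the values were 1.16, 3.69 and 1.35 in Early, 1.81, 1.67, 2.22 and 1.57 in Late, and 2.16, 2.21 and 2.50 in Reactivated, against 0.359, 0.383, 0.0584 and 0.300 in Basal. The lowest phase library was Early replicate 1 again, and the pooled log2 change was 2.13 ± 0.24 (adjusted p = 0.000204).

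The rise at chr18:45382623-45383294 was the most even of the large ones in its phase means, and the best covered. Its Early libraries differed widely, and Early replicate 2 was the highest of all libraries. It measured 1.56, 4.91 and 2.25 in Early, 2.69, 2.76, 2.81 and 2.87 in Late, and 2.09, 2.86 and 3.23 in Reactivated, against 0.348, 0.396, 0.362 and 0.983 in Basal. Phase changes were 1.96 in Early, 2.04 in Late and 2.00 in Reactivated, with a pooled change of 2.00 ± 0.24 (adjusted p = 0.000236). The 95% interval of Late minus Early was -0.56 to 0.73, so a difference between these phases anywhere in that interval remains compatible with the values. Phase libraries held 57 to 306 reads there and Basal libraries 12 to 38. At chr8:103190727-103190988, another even rise, changes were 1.83, 1.93 and 1.95 in Early, Late and Reactivated. The rise at chr3:92226809-92227074 was more graded, at 2.45 in Early, 2.00 in Late and 1.54 in Reactivated. The difference Reactivated minus Early was -0.91 there, with an interval of -1.48 to -0.33, but its adjusted p was 0.0686. The other 4 of the 8 largest rises, at chr14:107825696-107825937, chr8:100587423-100587660, chr9:88164182-88164418 and chr13:14990864-14991052, had pooled changes of 2.08, 2.03, 1.98 and 1.96.

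The 8 largest falls lay in narrow regions, 93 to 210 bases wide, against a median of 529 in all tested regions. The 8 largest rises were 188 to 671 bases wide, and all but the widest of them had at most 347 bases. Narrowness was thus not particular to the falls. At chr2:78777100-78777238 the values were 1.46, 0.312 and 1.86 in Early, 0.120, 0.818, 0.967 and 0.338 in Late, and 0.890, 0.794 and 0.185 in Reactivated, against 2.71, 2.89, 4.84 and 3.14 in Basal. All phase libraries lay below all Basal libraries, Early replicates 1 and 3 nearest. The pooled log2 change was -1.97 ± 0.36 (limma adjusted p = 0.00149), in a region 138 bases wide with 1 to 17 reads in phase libraries and 21 to 33 in Basal. At chr8:73029702-73029877 the values were 0.524, 0.861 and 0.691 in Early, 0.567, 0.737, 0.593 and 1.06 in Late, and 2.11, 0.940 and 0.583 in Reactivated, against 3.11, 3.04, 4.74 and 4.16 in Basal. Reactivated replicate 1 was the highest phase library, and the pooled change was -1.89 ± 0.23 (adjusted p = 0.000257). At chr7:51614856-51615006 the values were 0.367, 0.502 and 0.705 in Early, 0.662, 1.07, 0.988 and 1.14 in Late, and 0.737, 0.731 and 1.36 in Reactivated, against 3.73, 3.41, 2.70 and 3.82 in Basal. No phase library came near Basal, and the error was the smallest of the 8 largest falls, with a pooled change of -1.83 ± 0.18 (adjusted p = 0.000139).

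The most even of the named falls were at chr19:5084947-5085157, chr3:117280700-117280904 and chr12:35011528-35011676. Their changes in Early, Late and Reactivated were -1.86, -1.80 and -1.70, then -1.71, -1.63 and -1.71, then -1.82, -1.62 and -1.87. At chr2:108794499-108794646 the fall was -1.09 in Early, -2.19 in Late and -2.16 in Reactivated, and the F test missed the threshold narrowly (adjusted p = 0.0551). The remaining large falls were -1.96 at chr6:137740652-137740745, -1.81 at chr12:41660817-41660961 and -1.79 at chr11:69726873-69727004. The calls at chr12:41660817-41660961 and chr11:69726873-69727004 were lost with the in-region share of reads as a covariate (adjusted p = 0.0687 and 0.0642).

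Among the least even regions, the widest separation was at chr17:39979978-39985726, a region 5748 bases wide and far above the median level in all libraries. Its mean of 55.7 RPKM was the highest of all tested regions. Whether reads map uniquely to this region was not tested. It measured 29.9, 19.6 and 30.9 in Early, 11.5, 10.2, 10.9 and 10.3 in Late, and 69.1, 64.8 and 62.4 in Reactivated, against 76.5, 78.1, 98.6 and 81.8 in Basal. No group overlapped another. The fall was -1.65 in Early, -2.93 in Late and -0.35 in Reactivated, the last with an adjusted p of 0.18 in its own comparison, and the phases differed in the F test (adjusted p = 2.27e-05). The region chr11:108872960-108873401 had the same order, with 12.9, 8.86 and 14.6 in Early, 7.43, 7.35, 8.33 and 7.36 in Late, and 28.6, 27.3 and 28.9 in Reactivated, against 32.7, 37.3, 43.9 and 36.4 in Basal (F test adjusted p = 0.000948). Both lie among regions of very high level, where Late libraries were lower as a group.

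A different order held at chr17:34259221-34259824, where Early was lowest. Its values were 0.791, 0.750 and 0.902 in Early, 1.81, 2.35, 1.97 and 1.73 in Late, and 2.81, 2.61 and 2.33 in Reactivated, against 3.97, 3.62, 3.43 and 3.45 in Basal. The changes were -1.86 in Early, -0.81 in Late and -0.45 in Reactivated (F test adjusted p = 0.00364). At chr13:108679115-108679700 Late was lowest, with 3.07, 2.02 and 2.30 in Early, 1.02, 0.965, 0.836 and 0.876 in Late, and 1.89, 2.48 and 2.03 in Reactivated, against 5.21, 4.70, 4.36 and 4.33 in Basal (F test adjusted p = 0.00508).

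The 4 least even rises were all highest in Late on average. At chr13:22114163-22114544 the values were 1.01, 1.33 and 0.872 in Early, 2.60, 3.22, 2.57 and 2.40 in Late, and 2.13, 2.19 and 2.54 in Reactivated, against 0.531, 0.548, 0.531 and 0.774 in Basal. Late and Reactivated rose by 1.80 and 1.59 on the log2 scale and Early by 0.64 (F test adjusted p = 0.0109). At chr1:163155021-163155223 the changes were 0.42, 1.52 and 0.52 in Early, Late and Reactivated, and only that of Late passed its own test. The pooled call there was lost without the Late libraries (adjusted p = 0.0949; range over its alternatives with a lost call 0.0594 to 0.199). At chr11:6579278-6579485 the changes were 0.61, 1.60 and 0.88, and at chr13:23595650-23596018 they were 0.47, 1.45 and 0.95, in the same order of phases.

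**Figure D3:**
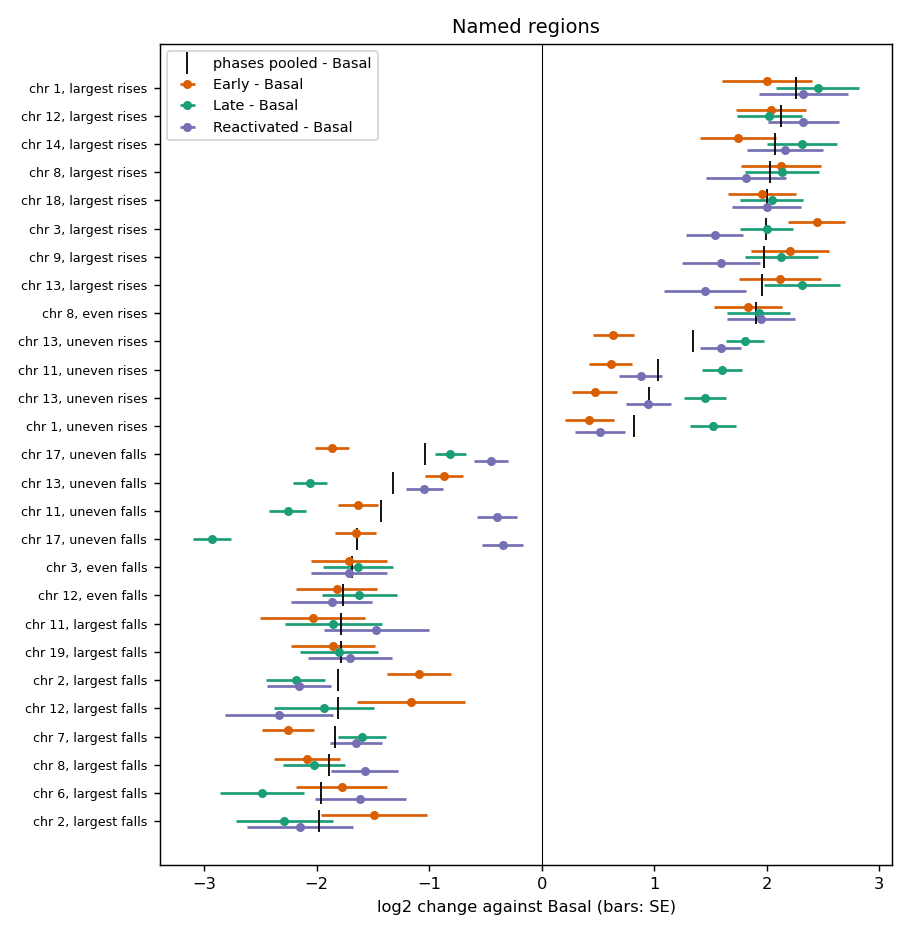
Log2 change against Basal in each phase for the 27 named regions, from the largest rise to the largest fall; points are estimates, bars SE, and black ticks the pooled change. The phases span 0.08 to 0.91 in the 8 largest rises, 0.15 to 1.17 in the 8 largest falls and 0.98 to 2.58 in the 8 uneven regions, most on chromosome 17 with -2.93 in Late and -0.35 in Reactivated.

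Regions called lower and higher differed in width, in a way that depended on level. Regions called lower had a median width of 402 bases and those called higher 584, against 529 in all tested regions. Of regions under 200 bases, 8.84% were higher and 29% lower, with median changes of -0.20 in Early, -0.44 in Late and -0.33 in Reactivated. Regions of 500 to under 1000 bases went the other way, with 19% higher and 10.5% lower. The widest, of 2000 bases and over, were 6.46% higher and 25.4% lower, with medians of -0.17 in Early, -0.30 in Late and 0.03 in Reactivated. The excess of lower calls in the widest class, relative to all regions, moved with the Late libraries. Without them 5.50% of these regions were lower, against 7.52% of all regions, whereas under 200 bases it was still 16.6%. The widest class kept its tilt without Late, with 2.49% higher, against 8.26% of all regions. Its median pooled change was then -0.08, against 0.02 over all regions. With the in-region share of reads as a covariate, 7.09% of the regions under 200 bases and 19.3% of the widest were lower, against 4.95% of all. In the lowest of 5 equal classes of mean RPKM, regions under 200 bases were 6.13% higher and 7.18% lower, against 11.9% and 13.6% of that class. In the other classes lower calls led at this width. Regions of 200 to under 500 bases were 11.5% higher and 21.9% lower in the second lowest class, but 24.1% higher and 9.22% lower in the highest. Narrow regions hold few reads, and the borders were drawn by the authors.

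**Figure D4:**
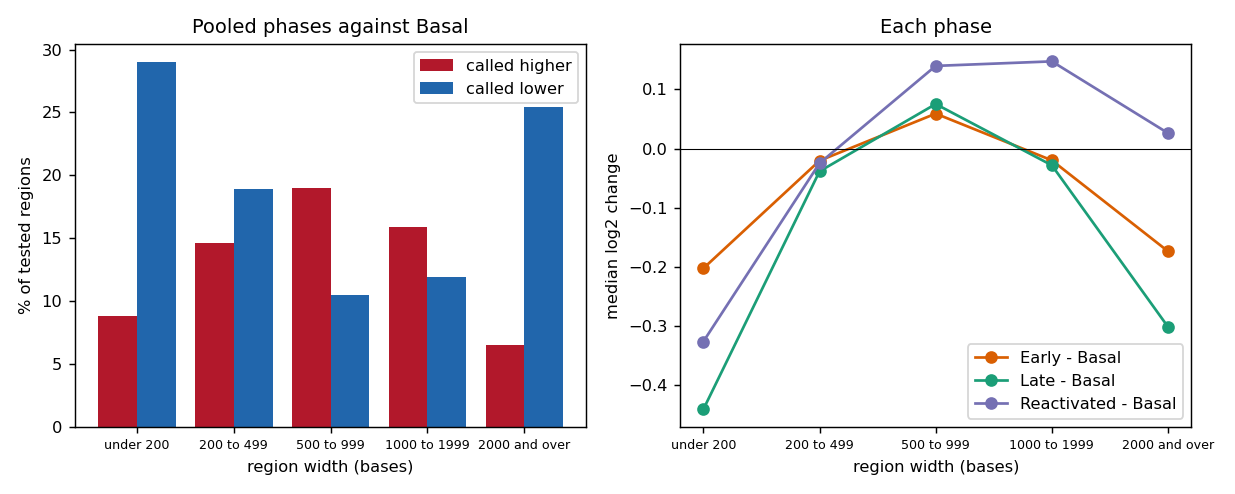
Share of tested regions called higher or lower in the pooled phases by region width (left), and median log2 change of each phase against Basal (right). Lower calls peak at 29% in the narrowest class and 25.4% in the widest, while only Reactivated has a median above 0 (0.03) in the widest class.

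Level and spacing went with direction too. In the highest of 5 equal classes of regions by mean RPKM, 21.2% were higher and 12.6% lower, with median changes of 0.04 in Early, -0.03 in Late and 0.26 in Reactivated. With the in-region share of reads as a covariate, 5.83% of them were higher and 10.7% lower, so the direction of the excess turned. Mean RPKM was taken over phase and Basal libraries together, so a region higher in the phases tends towards a higher class. The link between level and direction is therefore partly built in, and classes by Basal level alone were not tested. Regions within 1000 bases of another were 12% higher and 21.2% lower, and those 20000 to under 100000 bases from the nearest other region 20.3% higher and 11.8% lower. With that covariate, the close regions were 3.11% higher and 5.56% lower and the distant ones 5.94% higher and 6.35% lower. Over all regions the shares were then 4.17% higher and 4.95% lower. Lower calls thus slightly outnumbered higher ones in the distant class, as over all regions, and both of its shares exceeded the overall ones. Neighbouring regions resembled each other weakly, at long distances as well as short ones. After a lower region, 27.9% of the next regions within 1000 bases were lower, against 21.8% of all next regions at that distance. After a higher region, 20.7% of the next were higher, against 11.8%. At gaps of 20000 to under 100000 bases the next region was lower in 18.0% of cases after a lower one, against 13.1%, and higher in 28.1% after a higher one, against 19.4%.

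Changes were uneven over the chromosomes. On chromosome 7, 4.35% of regions were higher and 29.3% lower, and 14.7% differed among the phases. The median log2 deviation of its regions from the mean of all libraries was -0.44, -0.38 and -0.23 in Early, -0.077, 0.066, -0.079 and 0.043 in Late, and 0.25, 0.056 and 0.010 in Reactivated, against 0.28, 0.13, 0.22 and 0.18 in Basal. Early was lowest in all its libraries, and Reactivated replicate 1 lay within the Basal range. The phases differed from Basal by -0.29 (2-sided exact permutation p = 0.0224, adjusted p = 0.0941 over 21 measures; 0.0395 without Early replicate 1). Chromosome 17 had 11.5% higher and 20.7% lower, with median changes of -0.28 in Early, -0.07 in Late and 0.07 in Reactivated. Of its 10 phase libraries 5 lay below all Basal libraries, and the difference of -0.10 missed the threshold (exact permutation adjusted p = 0.352).

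Chromosome 15 differed by less, but in every library. Its deviations lay between -0.049 and -0.014 in Early, -0.020 and 0.011 in Late, and -0.013 and 0.010 in Reactivated, against 0.013 to 0.059 in Basal, so that all 10 phase libraries were below all Basal ones. The difference was -0.052 (exact permutation adjusted p = 0.00719) and kept its call without each library in turn. Chromosome 9 had 20.2% of regions higher and 7.6% lower, with a difference of 0.13 (exact permutation adjusted p = 0.0353). Chromosomes 2 and 8 differed by 0.036 and 0.031 (exact permutation adjusted p = 0.0301 for both). These 3 calls were lost without Basal replicate 1, 2, 3 or 4 or Early replicate 2, and that of chromosome 9 also without Late replicate 2 or 3 or Reactivated replicate 1, with adjusted p of 0.0502 to 0.149. Chromosome 16 had 20.6% higher and 10.6% lower, with median changes of 0.0042 in Early, 0.14 in Late and 0.19 in Reactivated. Its Early libraries, at -0.11 to -0.029, lay within the Basal range of -0.12 to -0.018, while all Late and Reactivated libraries were above Basal (exact permutation adjusted p = 0.110; 0.0336 without Early replicate 1).

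**Figure D5:**
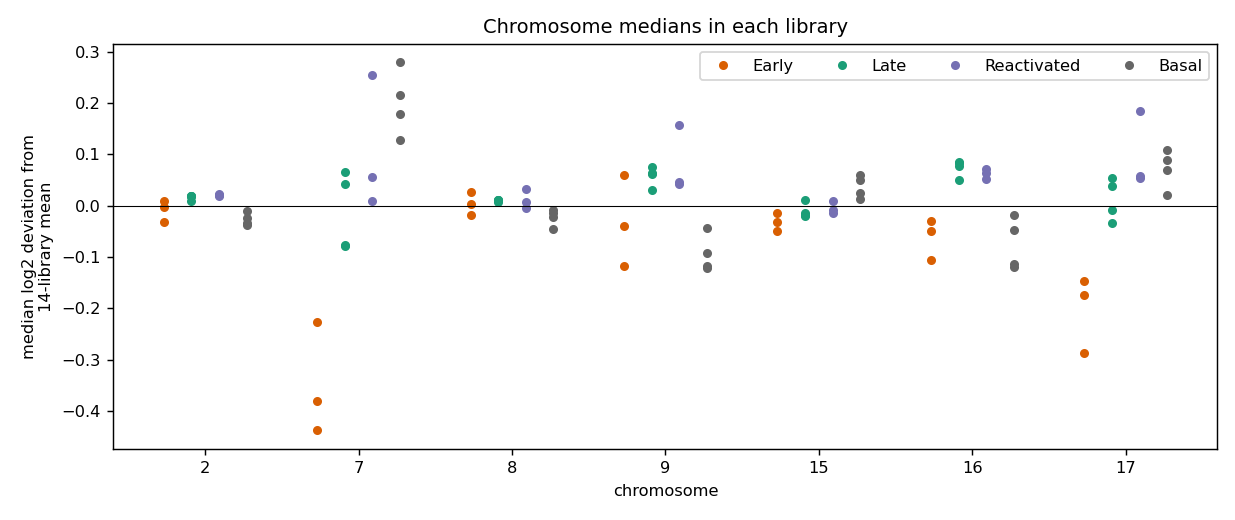
Median log2 deviation of a chromosome's tested regions from the mean of the 14 libraries, one point per library, for 7 chromosomes. On chromosome 15 the phase libraries all lie below Basal, and on chromosome 7 Early lies lowest, from -0.44 to -0.23.

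The median change also varied between windows along the chromosomes. Of 486 windows of 5 Mb with at least 50 tested regions, the lowest median change was -0.70 at chr7:15000001-20000000, where 68 of 91 regions were lower and 0 higher. Its medians were -1.30 in Early, -0.43 in Late and -0.33 in Reactivated. Next came chr7:50000001-55000000 with -0.58 and chr17:35000001-40000000 with -0.53, in both of which Early was lowest. The highest median was 0.47 at chr2:95000001-100000000, where 124 of 275 regions were higher, followed by 0.43 each at chr17:90000001-95000000 and chr16:65000001-70000000. In the chromosome 2 window the library medians were 0.14, 0.32 and 0.16 in Early, 0.28, 0.11, 0.21 and 0.12 in Late, and -0.15, 0.062 and 0.18 in Reactivated, against -0.29, -0.29, -0.35 and -0.23 in Basal. The phase libraries did not overlap Basal there, and Reactivated replicate 1 lay nearest. These windows were taken for their extreme medians, so their values carry no test.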

How the data were processed

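The authors deposited 1 table of RPKM values for 191271 regions in 14 libraries, in mm9 coordinates as they stand in that table. Bowtie2 2.0, SAMtools, MACS2, DiffBind and DESeq2 are named per the submitters' processing notes, with no role or order. Not given in the sources used here are whether regions were called per library, duplicates removed or cut positions shifted.

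RPKM was divided by each library's median over all regions and analysed as log2(value + 0.25), which understates changes of low regions. One limma fit (limma 3.58.1, R 4.3.3, trend, robust) with 4 group means gave the pooled contrast, each phase against Basal and the F test among phases, 2-sided, with Benjamini-Hochberg adjustment over 168650 regions at 0.05. Errors are moderated standard errors. Library measures had exact permutation tests over 210210 distinct weightings of libraries. Python 3.11.15, pandas 2.3.3, numpy 2.4.6 and scipy 1.17.1 did the rest. The scripts were tested on simulated data. RPKM times length gave whole reads in 100% of values (tolerance 0.01), so voom on these reads was an alternative; shares of reads cover counting error only. A depth of 27 to 52 reads per median region limits the precision of narrow and low regions.

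Named regions had adjusted p under 0.05 in the pooled comparison, no overlap of phase and Basal libraries and a mean above the median of tested regions; the 8 largest changes each way, the 4 each way with the largest smallest-phase change and the 4 each way with the smallest F test p were taken, at least 1 Mb apart within a ranking. The comparison, classes and rules were chosen with earlier results of these data known. Replicates with the same number did not deviate together (correlations of -0.244 to 0.0590 over 19 pairs), so numbers were not used as pairs.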

Additional observations from a re-analysis of the deposited data

Results flagged for a closer look

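At chr18:45382623-45383294 the Basal library of replicate 4 stood at 1.04 RPKM, far above the other Basal libraries (0.330 to 0.412 RPKM). Among chromosome medians of log2 deviation, 1 Late library stood away from the rest on chromosome 2 (replicate 1, at 0.00866, others 0.0187 to 0.0195), on chromosome 4 (replicate 2, at 0.00262, others 0.0112 to 0.0118) and on chromosome 18 (replicate 1, at -0.00247, others -0.0380 to -0.0360). These are 4 of 96 groups examined, and chance alone gives about 1 in 20.

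The phases differed among themselves by the limma F test at each of the 8 least even regions, which were taken for a small p of this test. Its adjusted p was 0.0109 at chr13:22114163-22114544, 0.0195 at chr1:163155021-163155223, 0.0226 at chr11:6579278-6579485 and 0.033 at chr13:23595650-23596018 among the rises. Among the falls it was 2.27e-05 at chr17:39979978-39985726, 0.000948 at chr11:108872960-108873401, 0.00364 at chr17:34259221-34259824 and 0.00508 at chr13:108679115-108679700.

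Median changes outside the autosomes also differed from 0, without a test. The median pooled log2 change over the 3365 chromosome X regions at the same minimum level was 0.377, with 0.31 in Early, 0.44 in Late and 0.40 in Reactivated. The library deviations there were -0.23, 0.38 and -0.020 in Early, against -0.11, -0.29, -0.38 and -0.20 in Basal. Early replicate 1 thus lay within the Basal range, while all Late and Reactivated libraries lay above it. Over the 3 chromosome Y regions at that level it was -0.38, with -0.76 in Early, -0.01 in Late and -0.27 in Reactivated; the labels give no sex. Over 6 regions of unplaced sequence it was 1.06, with -0.02 in Early, 3.23 in Late and -0.03 in Reactivated, so that value came from the Late libraries.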

How the results depend on the processing

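Counts of pooled calls moved by more than 1.5 times under 6 settings, given as higher and lower: 50224 and 9235 on RPKM as deposited, 12911 and 9694 at a mean of at least 1.5 RPKM (fewer regions tested), 7026 and 8353 with the in-region share of reads as covariate, 14001 and 14603 with Late averaged to 1 sample, 13923 and 12685 without Late, and 7746 and 7323 without Late and Early replicate 2, a setting added after the data were seen. Leaving out 1 library in turn gave 19411 to 30280 higher and 18723 to 29589 lower. F test calls ranged from 1556 to 16204 over single libraries left out, and were 1593 on deposited RPKM, 0 with Late averaged (20487 at an unadjusted p under 0.05) and 14060 with voom. Even regions were 37052 higher and 3251 lower on deposited RPKM, and 13669 to 20019 higher and 6108 to 16235 lower over libraries left out. The excess of the phases in the share of reads in regions was 3.69 to 6.21 points over libraries left out. Apart from the constructions just named, the cause of these moves was not tested. Other pseudocounts, scalings by median of ratios or quantiles, no level filter and limma without its robust option kept both pooled counts within 1.5 times. Of the 27 named regions, 24 kept their call under each of the 33 alternatives and none changed direction. Calls were lost at chr12:41660817-41660961, chr11:69726873-69727004 and chr1:163155021-163155223. All were chosen for separation from Basal without overlap, which by itself makes a change of direction unlikely under most alternatives.

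With the replicate number as a block, 22078 regions were higher and 22334 lower, and the F test called 373. The numbers do not pair the libraries.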
